A study of Mus musculus with 6 samples.

Results

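The 10 genes described here encode the adhesion molecules and membrane scaffolds that hold axon and glia together around the node of Ranvier: *Cntn1*, *Cntn2*, *Cntnap1*, *Cntnap2*, *Nfasc*, *Nrcam*, *Ank3*, *Sptbn4*, *Epb41l3* and *Cadm4*. They were listed by symbol, and each was matched to 1 Ensembl identifier in GENCODE release M21 (mouse genome GRCm38), so that 10 of the 18254 genes with values are covered. RNA sequencing had been performed on the medial prefrontal cortex (mPFC) of adult male mice, 10 to 12 weeks old, on a C57BL/6J background. The *Shank3* TG mice carry an EGFP-*Shank3* transgene and mildly overexpress Shank3, a scaffold of the excitatory postsynapse, and the WT mice were their littermates. There were 3 libraries of each genotype (numbered TG-1, TG-2 and TG-3, and WT-1, WT-2 and WT-3), each made from the pooled mPFC of 2 mice, so a replicate is a pool and not a mouse. The transgenic mice are of 1 line, and the tissue is a bulk dissection.

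Myelinated axons are divided into domains. Sodium channels cluster at the node, which is bare of myelin, and ankyrin G and spectrin hold them in place together with neurofascin and NrCAM. On both sides of the node lies the paranode, where the edges of the myelin sheath are anchored to the axon by contactin and Caspr on the axonal side and by a glial isoform of neurofascin on the other. The juxtaparanode, under the compact myelin next to it, holds shaker-type potassium channels together with Caspr2 and TAG-1. The axonal components are made in neurons, many of them also for the axon initial segment, while others are made in oligodendrocytes or in both.

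Neurofascin and NrCAM are held at the node by the same ankyrin-binding motif, FIGQY, in their cytoplasmic tails, which connects 3 of the 10 genes (*Nfasc*, *Nrcam* and *Ank3*). The coding stretch for this motif was read from the GENCODE M21 transcripts and is shown to make that shared link visible, with the motif's 15 bases in capitals and the coding strand written 5′ to 3′.

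*Nfasc*: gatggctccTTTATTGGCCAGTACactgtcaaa

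*Nrcam*: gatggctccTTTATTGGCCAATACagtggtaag

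The *Nfasc* stretch lies at chr1:132570498-132570530 (GRCm38, minus strand) in exon 30 of the 30 exons of the transcript Nfasc-202. The *Nrcam* stretch lies at chr12:44598477-44598509 (plus strand) in exon 28 of the 28 exons of Nrcam-202. Both are coding sequence, with 14 of the 15 motif bases and 28 of the 33 bases shown identical between the genes. The motif was present in 5 of 6 annotated coding transcripts of *Nfasc* and in 4 of 7 of *Nrcam*. The deposited values are summed over all transcripts of a gene, so the glial and the neuronal isoform of neurofascin could not be separated.

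Values are normalized read counts, that is, estimated read counts divided by a size factor of the library. They summed to between 28363967 and 29447717 per library. *Shank3*, the gene overexpressed by design, ranged from 16310 to 19004 normalized counts under *Shank3* TG and from 6791 to 8374 under WT, and no library went against its label. *Shank3* TG and WT were compared with limma's two-sided moderated test on log2(normalized count + 1) for the 16714 genes whose normalized counts averaged 5 or more, with Benjamini-Hochberg adjustment over all of them. At an adjusted p-value under 0.05, 0 of these genes (0%) passed, and 336 (2.01%) had an unadjusted p-value under 0.05. The libraries numbered 3 deviated alike in both genotypes, while numbers 1 and 2 were hardly told apart. In a fit blocked by number, 1 gene (0.00598%), *Shank3*, passed and 833 (4.98%) had an unadjusted p-value under 0.05. Measured against a standard normal, the z-scores of the unblocked fit had a width of 0.731, and those of the blocked fit 0.996. The unblocked test was thus conservative over all genes, and its large adjusted p-values are no evidence that a gene is unchanged. Where the z-scores of the unblocked fit were divided by their width, an empirical null, the counts were 26 (0.156%) and 1215 (7.27%).

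All 10 nodal and paranodal genes were well expressed, with at least 2040 normalized counts in every library, and all 10 were tested. None of the 10 passed the test, with an adjusted p-value of 0.9999 for each in limma's test, and the count was also 0 with the block and with the empirical null. The log2 changes lay between -0.22 (*Cntn2*) and 0.12 (*Cntnap1*), with 7 genes below 0 (51.4% of all tested genes were) and 3 above 0, and their median was -0.05 against -0.004 over all tested genes. The median of the 10 moved with single libraries, to -0.004 without TG-3, -0.01 without WT-2, -0.02 without WT-1 and -0.11 without WT-3. Only *Cntn2* among the 10 had an unadjusted p-value under 0.05, and it was lower in *Shank3* TG. Of all tested genes, 1.08% had such a p-value in that direction and 0.933% in the other, and with the block, where *Cntn2* was again the only one of the 10, 2.66% and 2.33% did. With the empirical null, *Cntnap1* joined *Cntn2* at an unadjusted p-value under 0.05, a count of 2 of 10 beside 7.27% of all tested genes. *Cntn2* was also the only one of the 10 whose *Shank3* TG libraries all lay on one side of the WT libraries, which held for 6.02% of all tested genes (3.12% lower and 2.91% higher). Counted at matching replicate numbers, *Cntn1*, *Cntn2* and *Ank3* were lower in *Shank3* TG each time (13.2% of all tested genes were), *Cntnap1* was higher each time (11.6%), which makes 4 of 10 with 1 direction throughout (24.8%), and the other 6 genes were mixed. None of the 10 genes' 95% confidence intervals reached below -0.40 or above 0.284 on the log2 scale. The intervals extended 0.166 to 0.292 to each side of the log2 change without the block and 0.12 to 0.164 with it.

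**Figure D1:**
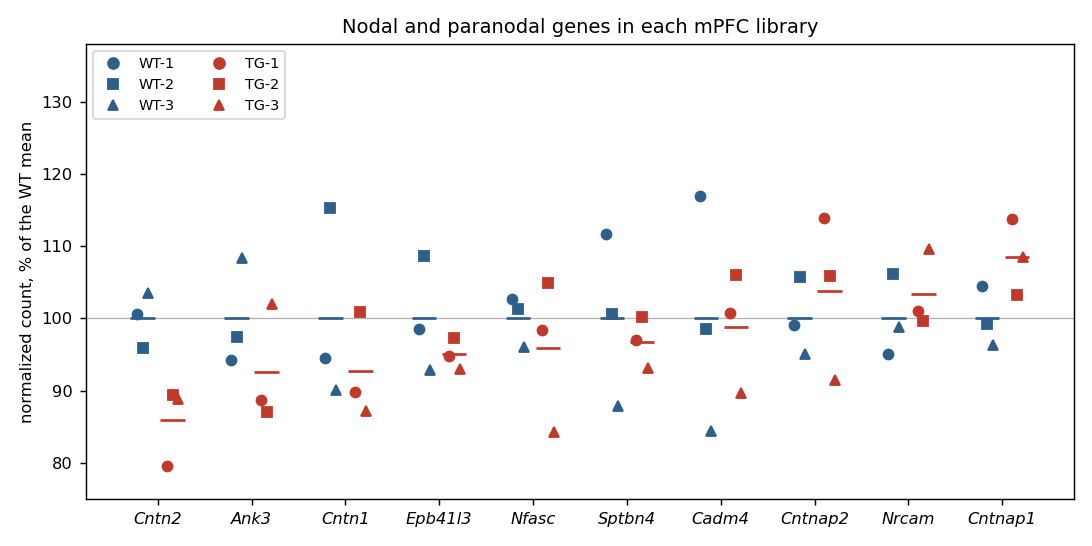
Normalized counts of the 10 genes in each library, as a percentage of the gene's mean in WT (vertical axis, starting at 75%). Blue symbols are WT and red symbols *Shank3* TG libraries, circles, squares and triangles are replicate numbers 1, 2 and 3, and horizontal bars are group means. The 3 red symbols lie below the 3 blue symbols for *Cntn2* alone, and the groups of the other 9 genes overlap.

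*Cntn2* encodes TAG-1 (contactin 2), a lipid-anchored adhesion molecule of the immunoglobulin superfamily that sits at the juxtaparanode on both the axon and the oligodendrocyte. It lies on chromosome 1 from 132509427 to 132543256 (ENSMUSG00000053024). Normalized counts of 3215, 3610 and 3588 were measured in TG-1, TG-2 and TG-3, against 4063, 3871 and 4184 in WT-1, WT-2 and WT-3, the order used for every gene that follows. The highest *Shank3* TG library, TG-2, thus stayed below the lowest WT library, WT-2. The *Shank3* TG mean was 3471 ± 222 (SD, n = 3) and the WT mean 4039 ± 158, a difference of -14.1% and a log2 change of -0.22 (standard error 0.08, 95% confidence interval from -0.40 to -0.04). The unadjusted p-value in limma's test was 0.021, and 0.826% of all tested genes had a smaller one. At replicate numbers 1, 2 and 3 the difference was -0.34, -0.10 and -0.22 on the log2 scale. In 16 of 19 alternative settings the unadjusted p-value was under 0.05, and it was 0.0944 without TG-1, 0.0509 without WT-1 and 0.0561 without WT-3. Over the 19 settings the adjusted p-value was lowest at 0.193 with the empirical null and lay between 0.532 and 1 in limma's other fits. The markers of oligodendrocytes were also lower in *Shank3* TG, as described further on, and in bulk tissue fewer cells of a type and less RNA per cell cannot be told apart.

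*Cntnap2* encodes Caspr2, the neurexin-like partner with which TAG-1 gathers potassium channels at the juxtaparanode. Located on chromosome 6 from 45059357 to 47304213 (ENSMUSG00000039419), its normalized counts were 2538, 2359 and 2040 for *Shank3* TG against 2209, 2358 and 2119 for WT. The groups overlapped fully, with TG-1 the highest and TG-3 the lowest of all 6. Its log2 change was 0.05 (standard error 0.10, unadjusted p = 0.631 in limma's test) and was -0.02 without TG-1. *Cntn2* and its partner ordered the libraries differently, and the ratio of *Cntn2* to *Cntnap2* normalized counts, 1.52 ± 0.247 (SD, n = 3) for *Shank3* TG and 1.82 ± 0.167 for WT, overlapped between the genotypes (exact two-sided permutation test, p = 0.2, with 0.1 the smallest p-value that 3 libraries against 3 allow). At every replicate number it was lower under *Shank3* TG, with 1.27 against 1.84, 1.53 against 1.64 and 1.76 against 1.97, which this test does not use.

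At the paranode, *Cntnap1* encodes Caspr, and *Cntn1* encodes contactin 1, the lipid-anchored molecule that Caspr needs to reach the axonal surface. *Cntnap1* (ENSMUSG00000017167, chromosome 11 from 101170523 to 101190724) reached 8978, 8148 and 8562 normalized counts under *Shank3* TG, compared with 8245, 7826 and 7606 under WT. TG-2 lay just below WT-1, and the other libraries were separated by genotype. The log2 change of 0.12 (standard error 0.07, unadjusted p = 0.14 in limma's test) was the highest of the 10 genes, and it was between 0.08 and 0.15 with any 1 library left out. *Cntnap1* overlaps *Plekhh3* and *Ccr10*, which are annotated on the opposite strand, and the libraries were made with a stranded kit. Such a kit does not separate genes on the same strand, which were annotated within the spans of 3 of the 10 genes. *Cntnap2* overlaps 28 annotated genes, 24 of them on the same strand, and of the 28 only *Rbpj-ps3* had values. *Nrcam* overlaps 2 and *Sptbn4* 1 on the same strand, without values.

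*Cntn1* (ENSMUSG00000055022, chromosome 15 from 92051165 to 92341967) went the other way in its mean, with normalized counts of 9791, 10992 and 9503 for *Shank3* TG against 10302, 12564 and 9818 for WT. WT-2 stood above the other 5, and without it the log2 change of -0.10 (standard error 0.11, unadjusted p = 0.368 in limma's test) was 0.003. The ratio of *Cntnap1* to *Cntn1* normalized counts was 0.917, 0.741 and 0.901 for *Shank3* TG against 0.8, 0.623 and 0.775 for WT. At every replicate number the *Shank3* TG ratio was the higher one, by 0.20, 0.25 and 0.22 on the log2 scale. Without regard to the numbers the groups overlapped, and the exact two-sided permutation test, which ignores the numbers and cannot go below 0.1, gave p = 0.3.

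*Nfasc* encodes neurofascin, whose glial isoform meets contactin and Caspr at the paranode and whose neuronal isoform sits at the node and the axon initial segment. It lies on chromosome 1 from 132564690 to 132741797 (ENSMUSG00000026442), next to *Cntn2* on the same strand, with 21433 bases and 0 annotated genes between them. The *Shank3* TG libraries gave 9648, 10277 and 8258 normalized counts and the WT libraries 10062, 9924 and 9416. The 2 extremes, TG-2 and TG-3, were both *Shank3* TG libraries, and the log2 change was -0.07 (standard error 0.09, unadjusted p = 0.496 in limma's test). Without TG-3 it was 0.02. *Epb41l3* encodes a FERM-domain protein that ties Caspr and Caspr2 to the axonal membrane skeleton. This gene (ENSMUSG00000024044, chromosome 17 from 69075683 to 69289989) gave 5485, 5630 and 5380 normalized counts for *Shank3* TG against 5698, 6282 and 5375 for WT. WT-2 was again the highest, the lowest was WT-3, and the log2 change of -0.07 (standard error 0.08) was -0.01 without WT-2.

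At the node, *Ank3* encodes ankyrin G, which binds neurofascin, NrCAM and sodium channels, and *Sptbn4* encodes βIV spectrin, which joins ankyrin G to actin. *Ank3* (ENSMUSG00000069601, chromosome 10 from 69398773 to 70027438) gave 12345, 12115 and 14188 normalized counts for *Shank3* TG against 13100, 13553 and 15077 for WT. The libraries numbered 3 were the highest of their genotype in both, and TG-3 exceeded WT-1 and WT-2, so that the groups overlapped. The log2 change was -0.11 (standard error 0.09, unadjusted p = 0.258 in limma's test), and by replicate number it was -0.09, -0.16 and -0.09. It was -0.18 without TG-3 and -0.05 without WT-3. *Sptbn4* (ENSMUSG00000011751, chromosome 7 from 27356383 to 27447686) gave 6932, 7155 and 6653 normalized counts for *Shank3* TG against 7974, 7182 and 6272 for WT, so that WT enclosed *Shank3* TG. Its log2 change of -0.04 (standard error 0.10) was 0.04 without WT-1. *Nrcam* encodes NrCAM, the second nodal adhesion molecule of the L1 family. Its normalized counts (ENSMUSG00000020598, chromosome 12 from 44328885 to 44601964) were 11512, 11360 and 12500 for *Shank3* TG against 10835, 12100 and 11259 for WT. TG-3 was the highest and WT-1 the lowest, and the log2 change was 0.05 (standard error 0.08), or -0.002 without both libraries numbered 3.

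*Cadm4* encodes an adhesion molecule of the immunoglobulin superfamily that lies on the glial side of the internode, the stretch between nodes that is covered by myelin. The gene (ENSMUSG00000054793) is on chromosome 7 from 24482023 to 24504539. Its normalized counts were 6133, 6459 and 5459 for *Shank3* TG against 7126, 6003 and 5143 for WT. WT-1 and WT-3 were the 2 extremes, so that WT enclosed all the *Shank3* TG libraries. The log2 change of -0.01 (standard error 0.13) was the closest to 0 of the 10 and its 95% confidence interval, from -0.30 to 0.28, the widest. It was 0.11 without WT-1 and 0.06 without TG-3.

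**Figure D2:**
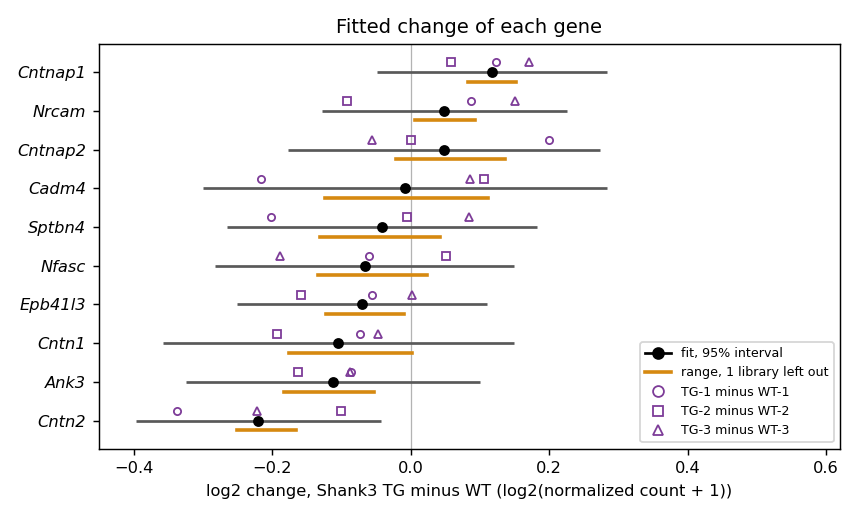
Log2 change of each gene, *Shank3* TG minus WT, on the log2(normalized count + 1) scale (horizontal axis). Black points and lines are the fitted change and its 95% confidence interval, orange lines the range with 1 library left out in turn, and open symbols the difference at replicate numbers 1 (circle), 2 (square) and 3 (triangle). *Cntn2*, at -0.22, has the interval that stays below 0, and the other 9 intervals include 0.

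Partners were also compared within each library, which takes out the scaling of the library. The ratios of *Cntn2* to *Cntn1*, *Cntnap1* to *Cntnap2*, *Nfasc* to *Nrcam* and *Sptbn4* to *Ank3* differed between the genotypes by -0.12, 0.07, -0.12 and 0.07 on the log2 scale. With the 2 ratios given above, 6 pairs were compared, and the 4 ratios named here were mixed in direction over the replicate numbers. The unpaired exact permutation p-values were 0.2 to 0.7 (0.7 for all 6 after adjustment), from a test that cannot pass 0.05 with 3 libraries against 3, and no other test of the ratios was made.

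The genes that work beside these 10 at the node and its flanks were read from 5 lists with 62 genes, all of which were tested. At an adjusted p-value under 0.05, 0 of the 62 genes passed in limma's test, and 2 had an unadjusted p-value under 0.05, both lower in *Shank3* TG (background 1.08%). In the list of nodal and axon initial segment genes, which holds subunits of sodium and potassium channels and 3 genes of other kinds, 0 of 14 had such a p-value, the log2 changes lay between -0.13 and 0.15 and the median was 0.01. Among its most abundant genes, *Scn8a* (-0.02) and *Scn2a* (0.07), which encode sodium channels of the node and the axon initial segment, had log2 changes below 0.1 in size. The other spectrins, ankyrins and membrane-skeleton genes had 0 of 11 and a median log2 change of 0.02, with *Sptan1* at 0.03. *Sptbn1* was at 0.06 with a standard error of 0.28, and its libraries numbered 3 had 38855 (TG-3) and 38935 (WT-3) normalized counts against 20834 to 23416 in the other 4, and its log2 change was -0.19 without TG-3 and 0.34 without WT-3. The juxtaparanodal list, with the shaker-type channels and their partners, had 0 of 15 and a median of -0.0001. Its most abundant genes were *Dlg4*, *Kcnab2* and *Dlg2*, with log2 changes of 0.07, 0.04 and -0.03. Related contactins, Caspr-like and L1-family genes and *Cadm1* to *Cadm3* had 0 of 14 and a median of 0.05, with *Cadm3*, the axonal relative of *Cadm4*, at 0.10, *Cadm2* at 0.01 and *L1cam* at 0.09.

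The list of the perinodal matrix held both genes with an unadjusted p-value under 0.05, *Hapln2* and *Vcan*. *Hapln2* encodes a link protein made by oligodendrocytes that organizes the matrix at central nodes, and *Vcan* encodes versican, a proteoglycan of that matrix. *Hapln2* (ENSMUSG00000004894, chromosome 3 from 88021750 to 88027583) gave 242, 322 and 256 normalized counts for *Shank3* TG against 376, 349 and 376 for WT. The groups did not overlap, and the log2 change was -0.43 (standard error 0.13, unadjusted p = 0.0106 in limma's test). *Vcan* (ENSMUSG00000021614, chromosome 13 from 89655312 to 89742509) gave 581, 596 and 523 normalized counts for *Shank3* TG against 696, 683 and 744 for WT, again without overlap, and a log2 change of -0.32 (standard error 0.09, unadjusted p = 0.00784 in limma's test). Their adjusted p-values were 0.9999. The other 6 genes of the list were mixed, among them the more abundant *Ncan*, *Tnr* and *Bcan*, which encode neurocan, tenascin-R and brevican and had log2 changes of 0.11, 0.04 and 0.05. In the blocked fit, 6 of the 62 genes had an unadjusted p-value under 0.05, where 4.98% of all tested genes did (2.33% higher and 2.66% lower), namely *Hapln2*, *Vcan* and 4 genes that were higher in *Shank3* TG, *Scn3b*, *Schip1*, *Epb41l2* and *Cntn6*, and 0 had an adjusted p-value under 0.05. Without WT-3 the count was 5, where 2.5% of all tested genes had such a p-value.

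**Figure D3:**
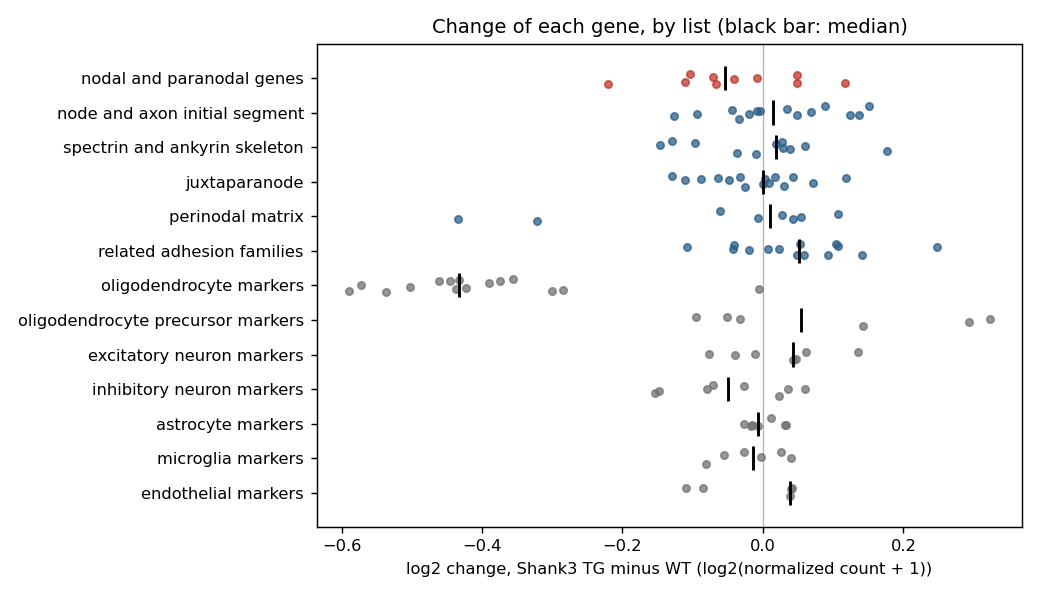
Log2 change of each gene, *Shank3* TG minus WT, on the log2(normalized count + 1) scale (horizontal axis), for the 10 nodal and paranodal genes (red), 5 lists of related genes (blue) and 7 lists of cell type markers (grey). Each point is a gene and black bars are medians. The median of the oligodendrocyte markers is -0.43, while the 10 genes have a median of -0.05.

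Because the tissue was bulk, the 10 genes were set beside markers of the cell types in it. The neuronal markers were present as the label of the tissue requires, with *Camk2a*, *Nrgn* and *Slc17a7* leading the excitatory list. Of 15 markers of mature oligodendrocytes, 15 were lower in *Shank3* TG by their log2 change, 13 had an unadjusted p-value under 0.05 (1.08% of all tested genes did in that direction), and 12 had groups that did not overlap (3.12%). In limma's test 0 of the 15 had an adjusted p-value under 0.05, without or with the block, while with the empirical null, where 0.156% of all tested genes did, 3 of them did, *Mog* (0.0353), *Ermn* (0.0479) and *Aspa* (0.0479). Several of these markers were among the genes that the study had reported from these libraries, so they are no independent evidence of a direction. Their summed normalized counts were 83363 to 107487 in the *Shank3* TG libraries and 123728 to 125554 in the WT libraries, and none was at 0 in any library. The median log2 change was -0.43, with the abundant *Mbp* and *Mobp* at -0.46 and -0.54. Among the others with the smallest p-values were *Mog* (-0.50), *Aspa* (-0.37) and *Ermn* (-0.59), which encode a surface protein of the myelin sheath, an enzyme that cleaves N-acetylaspartate and a cytoskeletal protein of myelinating cells. *Gjb1*, a gap junction gene, was at -0.01, with TG-3 the highest of the 6 libraries. The part of the marker level in the values of *Cntn2*, *Hapln2* and *Vcan* was not tested.

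The 6 other marker lists had medians nearer 0. Their median log2 changes were 0.05 for oligodendrocyte precursors, 0.04 for excitatory neurons, -0.05 for inhibitory neurons, -0.01 for astrocytes, -0.01 for microglia and 0.04 for endothelial cells. In limma's test, 0 of their 39 genes had an unadjusted p-value under 0.05, where 2.01% of all tested genes did. With the empirical null, *Slc17a7* (0.0238), *Neu4* (0.0251) and *Bmp4* (0.0289) did, all higher in *Shank3* TG, beside 7.27% of all tested genes. The groups of *Slc17a7* and *Bmp4* did not overlap. The 6 libraries were in the same order for *Cntn2* as for the mean oligodendrocyte marker level, from TG-1, TG-3 and TG-2 up to WT-2, WT-1 and WT-3. This was noticed after the values had been seen. The other 9 genes did not have this order, while 35 of all 16714 tested genes (0.209%) and 1 of the 15 markers (6.67%), *Cldn11*, did. The order requires every *Shank3* TG library below every WT library, for which *Cntn2* had already been singled out. Of all tested genes, 521 (3.12%) met that requirement, and only these could have the order. The share of 0.209% therefore does not measure how rare the match of *Cntn2* is.

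**Figure D4:**
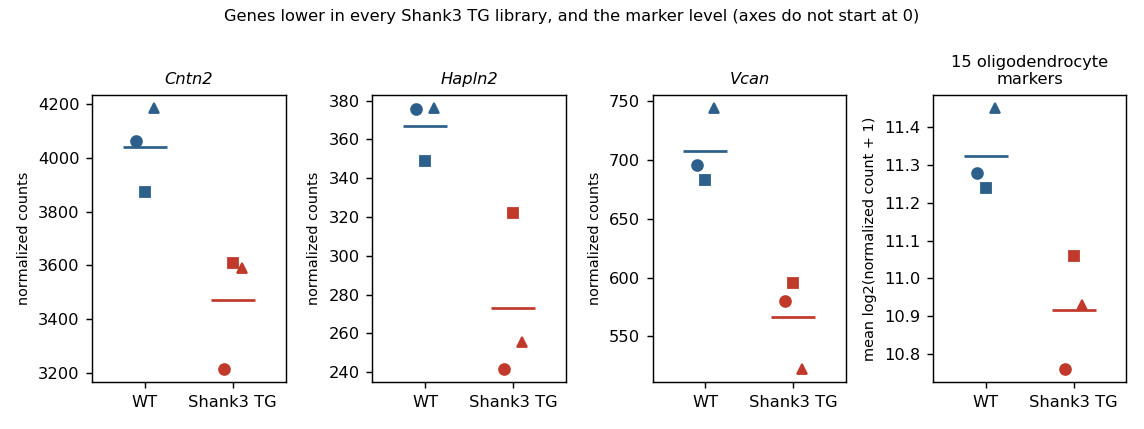
*Cntn2*, *Hapln2* and *Vcan* in normalized counts, and the mean log2(normalized count + 1) of 15 oligodendrocyte markers, in the 3 WT (blue) and 3 *Shank3* TG (red) libraries; the vertical axes do not start at 0. Circles, squares and triangles are replicate numbers 1, 2 and 3 and bars are group means. In all 4 panels every *Shank3* TG library lies below every WT library.

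Levels of different genes were compared as normalized counts per kilobase of the gene's annotated exons, counted once over all its transcripts. On this scale *Cadm4* was the highest, with 2784 ± 236 (SD, n = 3) normalized counts per kilobase for *Shank3* TG against 2818 ± 460 for WT, above every other gene in every library. Next came *Cntnap1* (1458 in *Shank3* TG and 1343 in WT) and *Cntn1* (1070 and 1155), the paranodal partners, whose ranges over the 6 libraries overlapped. *Nrcam* (883 and 853), *Sptbn4* (723 and 747) and *Nfasc* (664 and 693) followed, and in this order each overlapped its neighbour. *Epb41l3* (461 and 485) stood apart from the genes on both sides of it, while *Cntn2* (373 and 434) and *Ank3* (370 and 399) overlapped. *Cntnap2* was the lowest, with 226 and 218 normalized counts per kilobase and at most 248 in any library. Divided instead by the length of the longest coding transcript, *Cadm4* and *Cntnap2* kept the first and the last place, but the order between them depended on the length used. *Ank3*, which has 47 annotated transcripts, moved from place 9 to 6, *Sptbn4* from 5 to 8, *Cntnap1* from 2 to 4 and *Epb41l3* from 7 to 5, where its mean of 1385 normalized counts per kilobase was close to the 1345 of *Ank3*.

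**Figure D5:**
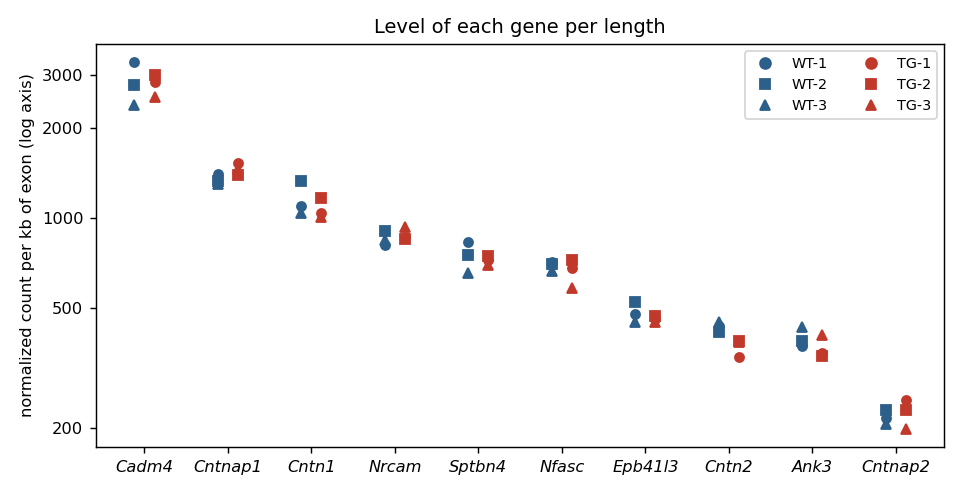
Level of each gene in normalized counts per kilobase of annotated exon (vertical axis, logarithmic), ordered from the highest to the lowest mean. Blue symbols are WT and red symbols *Shank3* TG libraries, and circles, squares and triangles are replicate numbers 1, 2 and 3. *Cadm4* lies at 2380 or above in every library and *Cntnap2* at 248 or below.

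Part of the spread within a genotype went with the libraries numbered 3, for these 10 genes as for many of all tested genes. In both genotypes, the library numbered 3 was the lowest of its 3 for 6 genes, *Cntn1*, *Cntnap2*, *Nfasc*, *Sptbn4*, *Epb41l3* and *Cadm4*, and the highest for *Ank3*. Over all tested genes, 25.3% were lowest and another 24.9% highest in this way, so the shift is common in these libraries. Among the cell type markers, the libraries numbered 3 were lowest in both genotypes for 6 of 7 astrocyte and 4 of 6 microglia markers. They were highest in both for 5 of 7 excitatory neuron markers, and each other marker list had at most 2 in either direction. A link between these shifts and those of the 10 genes was not tested. The mean difference of the libraries numbered 3 from the other 4 was -0.28 on the log2 scale for *Cadm4*, -0.18 for *Nfasc* and *Sptbn4*, and 0.20 for *Ank3*, each larger in size than the gene's difference between the genotypes. For *Cntn2* it was 0.08, and its log2 change between the genotypes without both libraries numbered 3 was -0.22.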

How the data were processed

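The deposited table holds normalized read counts, a signal that the authors made from RNA-seq reads with Salmon 0.9.1 on GRCm38 with GC bias correction, tximport in R 3.6.0 and DESeq2 1.19.11 size factors. The annotation release is not given in the sources used here. The values are not whole reads: at most 41.1% of the values below 20 in a library came within 0.05 of a step of whole reads, so depth is known only as summed normalized counts and no counting interval is given. All 6 columns were matched to samples by their labels.

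Names, positions and exon lengths came from GENCODE M21, in which 18215 of 18254 genes were found. Fits used R 4.3.3 and limma 3.58.1 (lmFit, eBayes with a mean-variance trend) with a pseudocount of 1, genes with a mean of at least 5, the genotype alone and an adjusted threshold of 0.05, and were tested on simulated data. The samples are separate pools, 3 per genotype. Deviations from the genotype mean correlated across genes at 0.62 between the 2 libraries numbered 3. For numbers 1 and 2 the correlations were 0.30 and 0.33. TG-1 with WT-2 had 0.27 and TG-2 with WT-1 had 0.23, so numbers 1 and 2 were hardly told apart. Libraries numbered 3 against those numbered 1 or 2 of the other genotype lay between -0.44 and -0.39. The labels do not say what a number shares.

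The 10 genes and all lists were chosen with earlier results of these data known. Named from each list were its 3 most abundant genes and up to 5 with the smallest unadjusted p-value under 0.05, and *Gjb1*, *Cldn11*, *Scn3b*, *Schip1*, *Epb41l2*, *Cntn6*, *Neu4* and *Bmp4* were named after their values had been seen. Some genes that this rule covers are not reported here. Protein sequences of these genes were not used here. Other settings tried were a pseudocount of 0.1 or 5, tests without a filter or from a mean of 50 upwards, quantile normalization, rescaling by the upper quartile, eBayes with no trend or with its robust option, the replicate block, a term for the libraries numbered 3, an empirical null (z-scores divided by their width) and each library left out. Leaving out both libraries numbered 3, the block with the robust option and the length of the longest coding transcript were chosen after seeing the data.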

Additional observations from a re-analysis of the deposited data

How the results depend on the processing

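Under the 19 other settings, 0 of the 10 genes and 0 of the 62 related genes passed the adjusted threshold in limma's test. The number of all genes that passed was 0 and became 26 with the empirical null and 1 (*Shank3*) with the robust option, the replicate block, the block with the robust option, a term for the libraries numbered 3, and without both of these libraries; it was 0 to 1 with each library left out. The median log2 change of the 10 genes stayed below 0, between -0.11 without WT-3 and -0.004 without TG-3 among the settings that left out 1 library. *Cntn2*, *Cntnap1*, *Ank3* and *Epb41l3* kept their direction under every setting, with ranges of -0.25 to -0.17, 0.08 to 0.15, -0.18 to -0.05 and -0.12 to -0.01 with 1 library left out. With 1 library left out in turn, the log2 change ranged from -0.175 to 0.00262 (without WT-2) for *Cntn1*, -0.0215 (without TG-1) to 0.136 for *Cntnap2*, -0.134 to 0.0235 (without TG-3) for *Nfasc*, -0.131 to 0.042 (without WT-1) for *Sptbn4* and -0.124 to 0.111 (without WT-1; 0.0602 without TG-3) for *Cadm4*, and *Nrcam* was at -0.00186 without both libraries numbered 3. The cause of these turns was not tested. The replicate block gave *Cntn2* an unadjusted p-value of 0.00656 and an adjusted one of 0.623 and changed no call among the 10 genes. Genes with an unadjusted p-value under 0.05 numbered 336, and 219 without TG-1, 717 with the term for the libraries numbered 3 and 1215 with the empirical null. With 3 pools a genotype, reaching an unadjusted p-value under 0.05 took a log2 change of 0.166 to 0.292 for the 10 genes in the unblocked fit and of 0.12 to 0.164 in the blocked one.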
